A study of Mus musculus with 6 samples.

Results

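The Hoxc cluster of the mouse is a run of 9 homeobox genes on chromosome 15, and it was examined here in 3 clock-gene knockout fibroblast lines. The members were taken by gene symbol, from Hoxc4 to Hoxc13, and all 9 were present among the 27179 genes of the count tables. RNA-sequencing counts were available for 6 libraries, 2 from independent RNA preparations of each line. All lines were immortalized mouse embryonic fibroblasts of the C57BL/6 strain, and every line lacked the period genes Per1 and Per2. Cry/Per_KO cells also lacked the cryptochromes Cry1 and Cry2, Per/Nr1d_KO cells also lacked the nuclear receptors Nr1d1 and Nr1d2, and Cry/Per/Nr1d_KO cells lacked all 6 genes. The sextuple line was a single clone derived from the Cry/Per_KO line with a lentiviral CRISPR vector, while Per/Nr1d_KO was a separate line. Cells were grown in medium with serum to near confluence before RNA was taken. There was no wild-type library, and a difference between lines cannot be told apart from a difference between clones. The study set Cry/Per_KO and Per/Nr1d_KO against Cry/Per/Nr1d_KO to read the roles of NR1D and CRY proteins.

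For 4 of the 6 libraries, the genotype label gave another line than the name carried by the deposited counts. The Cry/Per_KO-labelled libraries carried names of Cry/Per/Nr1d_KO, and the reverse. The genotype label set the groups, and these libraries are called "labelled" throughout. Clock genes went against the genotype labels. Arntl (BMAL1) and Cry1 are known to be repressed by NR1D proteins, so that a line that keeps NR1D should hold less of both than its derivative without NR1D. In the pair labelled Cry/Per_KO, which by that label keeps NR1D, Arntl had 2176 and 2208 normalized counts, against 1192 and 1171 in the Cry/Per/Nr1d_KO-labelled libraries and 2493 and 2455 in Per/Nr1d_KO. Arntl was thus higher in the Cry/Per_KO-labelled pair, by 0.89 on the log2 scale (SE 0.06, edgeR adjusted p = 2.42e-09). Cry1 was higher there too, with 5323 and 5478 against 1698 and 1724, by 1.66 (SE 0.05, adjusted p = 9.62e-13). Both directions fit the deposited names and not the labels. These genes were chosen for the check after values of Cry1 had been seen. Read by the deposited names, the libraries in which the whole Hoxc cluster was detected are those of the parental Cry/Per_KO line, and those in which Hoxc13 held most of the few Hoxc counts are those of the sextuple clone. Each direction between these groups below is given by label and has to be read with that exchange in mind, while the values and the 3 pairwise comparisons stay as they are. The mutated genes kept their transcripts, since Cry1, Cry2, Per1, Per2, Nr1d1 and Nr1d2 had between 1004 and 9337 normalized counts in every library.

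Hox proteins are transcription factors that bind DNA through a homeodomain, and they tell cells of the embryo where along the body and limb axes they lie. The mouse has 4 clusters, Hoxa to Hoxd, in which genes with the same number are paralogues, copies of one ancestral gene. The order of genes along a cluster follows their order of expression along the body, with high numbers at the tail end. Cultured fibroblasts are known to keep a Hox pattern of the body site they were taken from.

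The members lie in one orientation within chr15:102921131-103036856 (GRCm38.p6), a span of 116 kb, with Hoxc13 at the first end and Hoxc4 at the other. To show how alike and how different the genes are as targets for reads, the coding stretch of 51 bases around the start of the recognition helix of the homeobox is given for 8 members, taken from the annotated transcripts of that build. Capitals mark the 12 bases that matched the pattern TGGTT, C or T, CA, A or G, AA and C or T. In the reading frame, this pattern was found 1 time in each of these coding sequences.
Hoxc13: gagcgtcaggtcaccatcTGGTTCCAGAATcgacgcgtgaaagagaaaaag
Hoxc12: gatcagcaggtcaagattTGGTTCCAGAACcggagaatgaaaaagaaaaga
Hoxc11: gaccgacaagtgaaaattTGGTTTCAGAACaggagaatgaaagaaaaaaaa
Hoxc10: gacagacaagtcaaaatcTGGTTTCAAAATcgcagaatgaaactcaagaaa
Hoxc9: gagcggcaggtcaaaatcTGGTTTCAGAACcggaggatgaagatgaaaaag
Hoxc8: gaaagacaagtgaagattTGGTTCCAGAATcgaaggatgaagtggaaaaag
Hoxc6: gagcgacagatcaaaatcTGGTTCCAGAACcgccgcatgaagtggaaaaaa
Hoxc4: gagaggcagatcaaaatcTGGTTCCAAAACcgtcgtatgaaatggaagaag

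Even in this conserved stretch these members differed from each other at 8 positions (Hoxc6 and Hoxc4) to 18 positions (Hoxc11 and Hoxc4). The nearest Hox gene of another cluster differed at 3 to 9 positions, and Hoxc6 came closest, at 3 from Hoxb5. Over whole exons, 5 members shared no stretch of 50 bases with any other annotated gene. In the annotated transcripts, a gene set other than that of the RefSeq spans below, Hoxc10 and Hoxc5 shared 166 exon bases on the same strand. This was 8.70% and 5.37% of their exon length. Their RefSeq spans do not overlap, so whether their counts are uncertain to that extent is not known. Levels per kb below use exon lengths from the same annotated transcripts. Hoxc9 shared 1.44% and Hoxc8 0.432% of their stretches of 50 bases with other genes. How reads in shared stretches were counted is not given in the sources used here.

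Library totals ran from 53764390 to 85927236 counts. Values below are TMM-normalized counts, scaled to the mean library, in which 3 counts are worth 2.37 to 3.80 depending on the library. A count of 0 in a library allows up to 3 counts, and ratios are given with exact 95% intervals that cover counting error only. As a check of the cell type, 8 or 9 of 11 fibroblast markers exceeded 100 normalized counts in both libraries of each line, but Lum was at 0 in the Cry/Per_KO-labelled libraries and in Per/Nr1d_KO, and Thy1 was at 0 in Per/Nr1d_KO. The summed fibroblast markers were 947948 to 998247 in the Cry/Per/Nr1d_KO-labelled libraries, 867241 to 888643 in the Cry/Per_KO-labelled pair and 1713540 to 1731160 in Per/Nr1d_KO. These sums rest mainly on Col1a1, Col1a2 and Fn1. Of the 8 markers tested, 4 were called higher and 4 lower in Per/Nr1d_KO than in the Cry/Per/Nr1d_KO-labelled libraries, with a median log2 fold change of 0.02. In the Cry/Per_KO-labelled pair 0 were higher and 2 lower, with a median of -0.31. The chondrocyte markers summed to 4614 to 4825, 1957 to 2092 and 58879 to 58952 in the same order of groups. Col2a1 carried the last sum, at 58125 and 58302, against 2859 and 2427 in the Cry/Per/Nr1d_KO-labelled libraries. It had 12.2 and 16.7 in the Cry/Per_KO-labelled pair. Sox9 and Acan were called lower in Per/Nr1d_KO than in the Cry/Per/Nr1d_KO-labelled libraries, and Sox9 was not called between the labelled groups. The part of these markers in the results was not tested. The 5 epithelial, 4 endothelial and 3 muscle markers summed to at most 139.7, 138.1 and 110.3 in any library, and the 4 blood markers to at most 294. The 4 neural markers summed to 5514 to 5815, 5361 to 5516 and 1007 to 1039 in the order above. The like sums of the labelled groups hide opposite moves. Tubb3 had 1959 and 1776 in the Cry/Per/Nr1d_KO-labelled libraries and 359 and 356 in the Cry/Per_KO-labelled pair. Map2 had 3548 and 4030, then 5138 and 4992. Both were called lower in Per/Nr1d_KO than in the Cry/Per/Nr1d_KO-labelled libraries.

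The 9 Hoxc genes were detected in both Cry/Per/Nr1d_KO-labelled libraries and were at or close to 0 elsewhere, with Hoxc13 as the exception. Summed over the cluster, the Cry/Per/Nr1d_KO-labelled libraries held 1173 and 1292 normalized counts. The sums were 63.4 and 69.7 in the Cry/Per_KO-labelled libraries and 2.53 and 0.789 in Per/Nr1d_KO, and the 3 groups did not overlap. In bulk RNA, fewer expressing cells and less RNA per cell cannot be told apart.

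**Figure D1:**
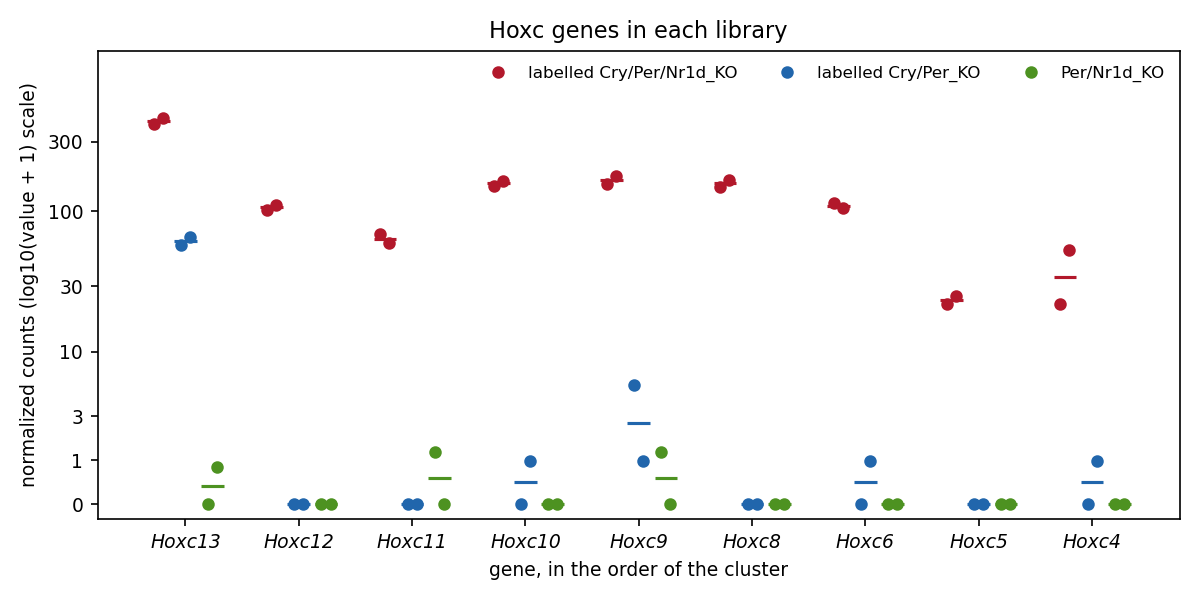
Normalized counts of the 9 Hoxc genes (vertical axis, log10(value + 1) scale) in the order of the cluster (horizontal axis). Each point is 1 library and each line the group mean on that scale. Hoxc13 is the only member with a raised level in the Cry/Per_KO-labelled libraries (57.9 and 65.8), and no other point outside the Cry/Per/Nr1d_KO-labelled libraries exceeds 5.56.

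At the posterior end of the cluster, Hoxc13 (chr15:102921131-102928814), needed for hair and nails, had 394 and 436 normalized counts in the Cry/Per/Nr1d_KO-labelled libraries. It had 57.9 and 65.8 in the Cry/Per_KO-labelled libraries, and 0 and 0.789 in Per/Nr1d_KO. It was thus the one member with an intermediate level, and the 3 groups did not overlap. By edgeR's quasi-likelihood test it fell by 2.74 on the log2 scale (SE 0.14, adjusted p = 2.18e-10) in the Cry/Per_KO-labelled libraries relative to the Cry/Per/Nr1d_KO-labelled pair. It was also lower in Per/Nr1d_KO than in either other group, with adjusted p = 5.77e-13 against the Cry/Per/Nr1d_KO-labelled libraries and 1.09e-08 against the Cry/Per_KO-labelled pair by the same edgeR test.

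As a ratio of counts, Hoxc13 was 6.65-fold higher (5.48 to 8.13) in the Cry/Per/Nr1d_KO-labelled libraries than in the Cry/Per_KO-labelled pair. The ratios to Per/Nr1d_KO rest on 1 count in that line. They were 849 (152 to 33582) for the Cry/Per/Nr1d_KO-labelled libraries and 128 (22.5 to 5084) for the Cry/Per_KO-labelled pair. Without the Per/Nr1d_KO library that held this count, replicate 2, they became lower bounds of 109.8 and 16.2, and without replicate 1 they were 523 and 78.7.

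Hoxc13 was the only one of the 9 members whose mean over the 6 libraries reached 100 normalized counts, which was the condition for the test. It met that condition through the libraries where it was high, so that some difference was built into its entry to the test. In the comparison of the Cry/Per_KO-labelled libraries with the Cry/Per/Nr1d_KO-labelled pair, 16.8% of the 11934 genes tested were called, 8.95% as lower. For Per/Nr1d_KO the shares were 20.7%, 9.35% as lower, against the Cry/Per/Nr1d_KO-labelled libraries, and 29.0%, 13.8% as lower, against the Cry/Per_KO-labelled pair. A call was an adjusted p under 0.05 with an absolute log2 fold change above 0.81, the limit on the fold used in the study.

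Hoxc12 (chr15:102936826-102938609), Hoxc13's neighbour and with it among the last genes of the cluster to be used along the body axis, had 102 and 110 normalized counts in the Cry/Per/Nr1d_KO-labelled libraries. No read of it was counted in the other 4 libraries. Its level was therefore at least 33.7-fold higher than in the Cry/Per_KO-labelled libraries and at least 34.4-fold higher than in Per/Nr1d_KO, set against the floor of 3 counts in each library.

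Hoxc11 (chr15:102954526-102956701), which with its paralogues patterns the hind part of the trunk and the kidney, had 69.3 and 60.0 normalized counts in the Cry/Per/Nr1d_KO-labelled libraries. It was at 0 in both Cry/Per_KO-labelled libraries, an at least 20.6-fold difference, and at 1.27 and 0 in Per/Nr1d_KO, a ratio of 134 (23.6 to 5329). That ratio rested on 1 count in Per/Nr1d_KO replicate 1, without which Hoxc11 was at least 27.3-fold higher, and was 51.6 without replicate 2. Hoxc10 (chr15:102966796-102971898), used in the lumbar spinal cord and the hind limb, had 149 and 162 where the cluster was detected. Its only count elsewhere was 1 in a Cry/Per_KO-labelled library, which gave a ratio of 297 (52.9 to 11767), and against Per/Nr1d_KO it was at least 50.5-fold higher.

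The middle genes showed the same division between libraries. Hoxc9 (chr15:102977032-102984444), which sets the identity of thoracic motor neurons, had 154 and 175 normalized counts in the Cry/Per/Nr1d_KO-labelled libraries. It was the member other than Hoxc13 with the most counts elsewhere, at 5.56 and 0.982 in the Cry/Per_KO-labelled libraries and 1.27 and 0 in Per/Nr1d_KO. The ratio was 52.2 (23.7 to 143) against the Cry/Per_KO-labelled libraries and 336 (59.9 to 13304) against Per/Nr1d_KO. The first of these rested on the 5 counts of replicate 1 of the Cry/Per_KO-labelled libraries and was 166 without that library and 29.3 without replicate 2. The second rested on 1 count in Per/Nr1d_KO replicate 1, without which Hoxc9 was at least 69.5-fold higher, and was 129.5 without replicate 2. Between those libraries and Per/Nr1d_KO the ratio was 6.44 with an interval of 0.781 to 296, which includes equal levels. It was at least 1.38 without Per/Nr1d_KO replicate 1, 2.47 without Per/Nr1d_KO replicate 2 and 11.4 without replicate 2 of the Cry/Per_KO-labelled libraries, and without their replicate 1 both groups were at or under 3 counts.

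Hoxc8 (chr15:102990539-102994275), which acts in thoracic vertebrae and in motor neurons that supply the forelimb, had 146 and 164 normalized counts in the Cry/Per/Nr1d_KO-labelled libraries. It was at 0 in the other 4 libraries, so that it was at least 49.5-fold higher than in the Cry/Per_KO-labelled libraries and at least 50.4-fold higher than in Per/Nr1d_KO. Hoxc6 (chr15:102998226-103011882), a gene of the thorax and forelimb level, had 114 and 104. It had 0 and 0.982 in the Cry/Per_KO-labelled libraries, a ratio of 210 (37.3 to 8330), and was at 0 in Per/Nr1d_KO, at least 35.3-fold lower.

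The anterior end carried the fewest counts. Hoxc5 (chr15:103014008-103017429), which with Hoxa5 maintains the motor neurons of the diaphragm, had 22.2 and 25.5 normalized counts in the Cry/Per/Nr1d_KO-labelled libraries and 0 in the other 4. The bounds on its fold were the lowest of the cluster's bounds, at least 7.60 against the Cry/Per_KO-labelled libraries and at least 7.74 against Per/Nr1d_KO, since its level allows no more. Hoxc4 (chr15:103018097-103036856), a gene of the neck and upper chest level, had 22.2 and 53.3, then 0 and 0.982, then 0 and 0 in the same order of groups. The ratio was 69.0 (12.0 to 2764) against the Cry/Per_KO-labelled libraries, and against Per/Nr1d_KO it was at least 12.2-fold higher. That bound was 7.20 without replicate 2 of the Cry/Per/Nr1d_KO-labelled libraries and 17.3 without replicate 1.

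For the members other than Hoxc13 and Hoxc9, a ratio against the Cry/Per_KO-labelled libraries rested on a single count. Leaving out replicate 2 of those libraries turned the ratios of Hoxc10, Hoxc6 and Hoxc4 into lower bounds of 46.6, 32.7 and 11.3, and leaving out replicate 1 gave ratios of 157.8, 111.6 and 36.7. Without replicate 2 of the Cry/Per/Nr1d_KO-labelled libraries the ratio of Hoxc4 was 42.5. Over all 9 members, ratios and bounds together, the median was 49.5 against the Cry/Per_KO-labelled libraries, where 4 values were bounds. It was 50.4 against Per/Nr1d_KO, where 6 were bounds. Between the Cry/Per_KO-labelled libraries and Per/Nr1d_KO a ratio could be formed only for Hoxc13 and Hoxc9, because the other 7 members were at or under 3 counts in all 4 libraries.

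With the minimum mean lowered to 10 normalized counts, 8 members were tested by edgeR and Hoxc5 was not. All 8 were called lower in the Cry/Per_KO-labelled libraries than in the Cry/Per/Nr1d_KO-labelled pair, with adjusted p from 1e-11 to 1.04e-05, where 22.4% of the 14770 genes tested were called, 11.9% as lower. All 8 were also lower in Per/Nr1d_KO than in the Cry/Per/Nr1d_KO-labelled libraries, with adjusted p from 6.27e-15 to 3.9e-06, where 26.5% of genes were called, 13.1% as lower. These members entered the test only through the group where they were high, so they had to differ, and the counts describe the cluster without adding support. Between Per/Nr1d_KO and the Cry/Per_KO-labelled libraries, Hoxc13 was the only 1 of the 8 called, at adjusted p = 1.12e-09, where 33.8% of genes were called, 16.8% as lower. With no filter all 9 members were tested, and 9, 9 and 1 were called lower in the 3 comparisons, where 10.3%, 11.5% and 13.6% of 20375 genes were called lower and 18.7%, 22.5% and 27.4% in either direction.

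Within the Cry/Per/Nr1d_KO-labelled libraries the members differed among themselves. Levels of different genes were compared per kb of exon. Hoxc13 stood highest at 169 ± 12.1 normalized counts per kb (SD, n = 2), followed by Hoxc12 at 103 ± 5.38 and Hoxc10 at 81.5 ± 4.81. Hoxc9 at 67.7 ± 6.36, Hoxc8 at 54.9 ± 4.46 and Hoxc6 at 45.3 ± 2.72 came next. The order ended with Hoxc11 at 32.0 ± 3.25, Hoxc4 at 14.7 ± 8.57 and Hoxc5 at 7.73 ± 0.77, and Hoxc4 and Hoxc5 were the only neighbours in it whose SD bands overlapped.

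Read along the chromosome from Hoxc13 to Hoxc4, the level per kb was lower at the next gene in 6 of 8 steps. It was higher from Hoxc11 to Hoxc10, beyond the SDs, and from Hoxc5 to Hoxc4, within them. The posterior end of the cluster thus carried the higher levels, with Hoxc11 below its neighbours on either side. The replicates differed by a factor of 1.08 to 1.15 for 8 members and by 2.40 for Hoxc4, whose 25 and 48 counts make its place in the order the least certain.

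**Figure D2:**
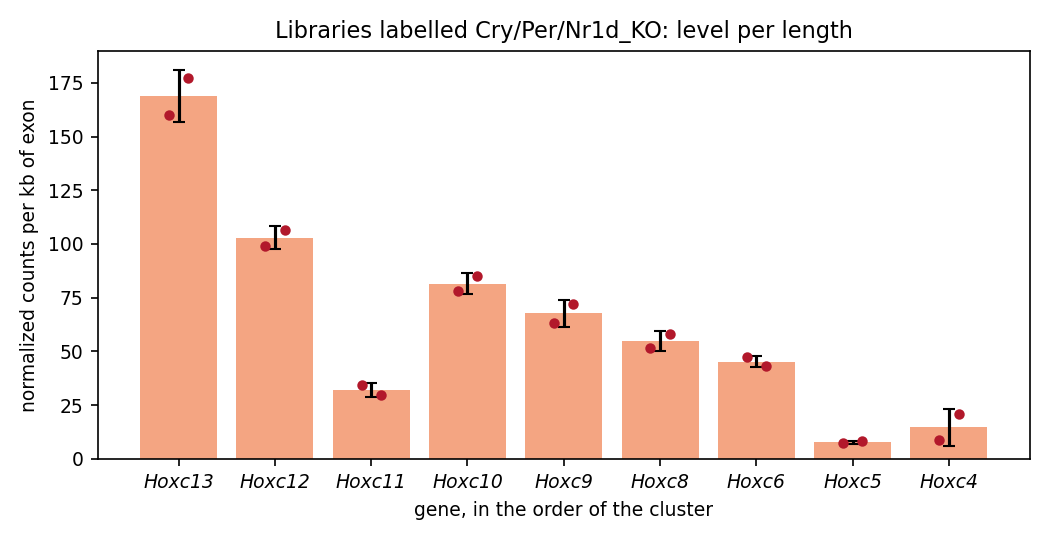
Normalized counts per kb of exon (vertical axis) of each Hoxc gene in the 2 Cry/Per/Nr1d_KO-labelled libraries, in the order of the cluster. Bars are means, error bars the SD of 2 libraries, and points the libraries. The level runs from 169 at Hoxc13 to 7.73 at Hoxc5, with Hoxc11 at 32.0 between Hoxc12 at 103 and Hoxc10 at 81.5.

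The make-up of the cluster's counts differed between lines. Hoxc13 held 33.6% (exact Clopper-Pearson 95% interval 31.1 to 36.2) and 33.8% (31.1 to 36.6) of the Hoxc counts in the Cry/Per/Nr1d_KO-labelled libraries. It held 91.2% (80.7 to 97.1) and 94.4% (86.2 to 98.4) in the Cry/Per_KO-labelled libraries. The intervals of the groups did not overlap, but they cover counting error only. The 8 other members had 5 and 4 counts in total in the Cry/Per_KO-labelled libraries, against 877 and 770 in the Cry/Per/Nr1d_KO-labelled pair. Per/Nr1d_KO held 2 and 1 Hoxc counts in all, too few for a share.

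Non-coding genes of the cluster were also listed. Hotair, a long RNA transcribed between Hoxc12 and Hoxc11, followed the members and had 40.8 and 61.1 normalized counts in the Cry/Per/Nr1d_KO-labelled libraries. It was at 0 in the other 4 libraries, and so at least 16.2-fold lower in the Cry/Per_KO-labelled libraries and at least 16.5-fold lower in Per/Nr1d_KO. The microRNA genes Mir196a-2 and Mir615 were at 0 in all 6 libraries, but libraries of long poly-A RNA do not measure mature microRNAs. Their mature products from RefSeq (GRCm38.p6) are given with the seed, bases 2 to 8, in capitals, because miR-196 sites are known in Hox transcripts. The seed of miR-196a-5p is shared with miR-196b-5p, which is encoded in the Hoxa cluster.
mmu-miR-196a-5p: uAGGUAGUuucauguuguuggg
mmu-miR-196b-5p: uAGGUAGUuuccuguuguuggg
mmu-miR-615-3p: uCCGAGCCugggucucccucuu

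Of the 9 members, Hoxc4 had an entry in the RefSeq promoter table used here, and its window is shown as the regulatory sequence of a member that was at 0 or 1 count outside the Cry/Per/Nr1d_KO-labelled libraries. The window is chr15:103034145-103034444 (GRCm38.p6, plus strand), from 250 bases before to 50 bases after an annotated start that lies inside the span of the gene given above. It was searched on both strands for the clock E-box CACGTG, for the half-site AGGTCA that nuclear receptors of the NR1D and ROR families bind, and for the TATA box TATAAA. Capitals mark the match to AGGTCA on the minus strand.
Hoxc4 promoter: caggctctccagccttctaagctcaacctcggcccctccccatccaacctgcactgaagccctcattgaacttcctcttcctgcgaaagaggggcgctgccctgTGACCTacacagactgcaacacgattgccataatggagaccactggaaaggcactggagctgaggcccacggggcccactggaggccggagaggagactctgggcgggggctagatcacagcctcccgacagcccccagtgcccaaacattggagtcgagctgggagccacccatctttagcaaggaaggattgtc
The AGGTCA match lay 146 bases before the start, and 16.3% of the 32851 promoter windows hold at least 1. CACGTG and TATAAA, which 7.15% and 13.6% of windows hold, had no match in these letters. The window held 9 CpG dinucleotides, where the median window holds 7.

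The other Hox clusters were set beside Hoxc to see where it differed. The 11 Hoxa genes summed to 1038 and 1065 normalized counts in the Cry/Per/Nr1d_KO-labelled libraries, 854 and 871 in the Cry/Per_KO-labelled pair and 7861 and 7437 in Per/Nr1d_KO. The 10 Hoxb genes summed to 2000 and 2048, then 7.79 and 9.82, then 447 and 437 in the same order of groups. The 9 Hoxd genes summed to 1501 and 1654, then 6.68 and 3.93, then 16400 and 15623. Hoxc was the cluster with the lowest sum in Per/Nr1d_KO, where Hoxa and Hoxd had their highest sums. In the Cry/Per_KO-labelled libraries, Hoxa was the only cluster with over 100 normalized counts.

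**Figure D3:**
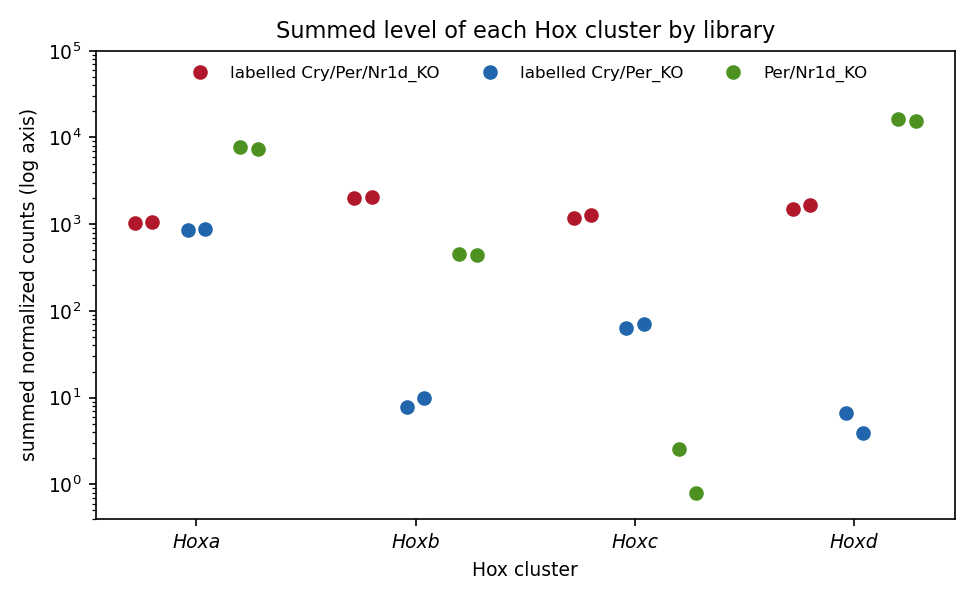
Summed normalized counts (vertical axis, log axis) of the genes of each Hox cluster (horizontal axis), 1 point for each library. Hoxc falls from 1173 and 1292 in the Cry/Per/Nr1d_KO-labelled libraries to 63.4 and 69.7 in the Cry/Per_KO-labelled pair and to 2.53 and 0.789 in Per/Nr1d_KO, while Hoxd is highest in Per/Nr1d_KO.

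Of the 30 genes of the other clusters, 16 were tested. Between the Cry/Per_KO-labelled libraries and the Cry/Per/Nr1d_KO-labelled pair all 16 were called, 13 as lower and 3 Hoxa genes as higher, with a median log2 fold change of -5.52 when the 6 genes with a group at 0 were put at their bound. The median over all genes tested was -0.003. Relative to the Cry/Per/Nr1d_KO-labelled libraries, 13 were higher in Per/Nr1d_KO and 2 were lower, with a median of 2.48 against 0.011 for all genes. The 2 lower genes were Hoxb9 and Hoxb13. Relative to the Cry/Per_KO-labelled libraries, 12 were higher in Per/Nr1d_KO and 1, Hoxa3, was lower. In the same order of comparisons, 16.8%, 20.7% and 29.0% of all genes tested were called. Some of the 16, such as Hoxb9 and Hoxb13, reached the minimum mean only through a group where they were high. A difference was thus built into their entry, and the counts describe the clusters without adding support. These comparisons share libraries and are not independent of each other.

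Each Hoxc gene was also read as a share of its paralogue group. In the Cry/Per/Nr1d_KO-labelled libraries, Hoxc12 made up 98.3% and 98.0% of the level per kb of paralogue group 12, whose other gene is Hoxd12. Hoxc8 made up 48.5% and 49.9% of group 8, Hoxc6 37.0% and 38.1% of group 6, and Hoxc10 31.3% and 31.0% of group 10. Hoxc13 made up 20.2% and 21.0% of group 13, in which Hoxd13 had 452 and 483 normalized counts per kb and Hoxc13 160 and 177. Shares of the remaining groups ran from 11.7% for Hoxc5 to 26.4% for Hoxc4.

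In the Cry/Per_KO-labelled libraries, Hoxc13 was the main gene of its group, at 94.4% and 95.6% of the level per kb, with 23.5 and 26.7 normalized counts per kb against 0.896 and 0.791 for Hoxd13. In Per/Nr1d_KO group 13 was carried by Hoxd13, at 5316 and 5053 normalized counts per kb, and Hoxc13 was at 0 and 0.321. Hoxd12, and not Hoxc12, was the detected gene of group 12 there, with 365 and 340 normalized counts in Per/Nr1d_KO against 4.44 and 5.55 in the Cry/Per/Nr1d_KO-labelled libraries.

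**Figure D4:**
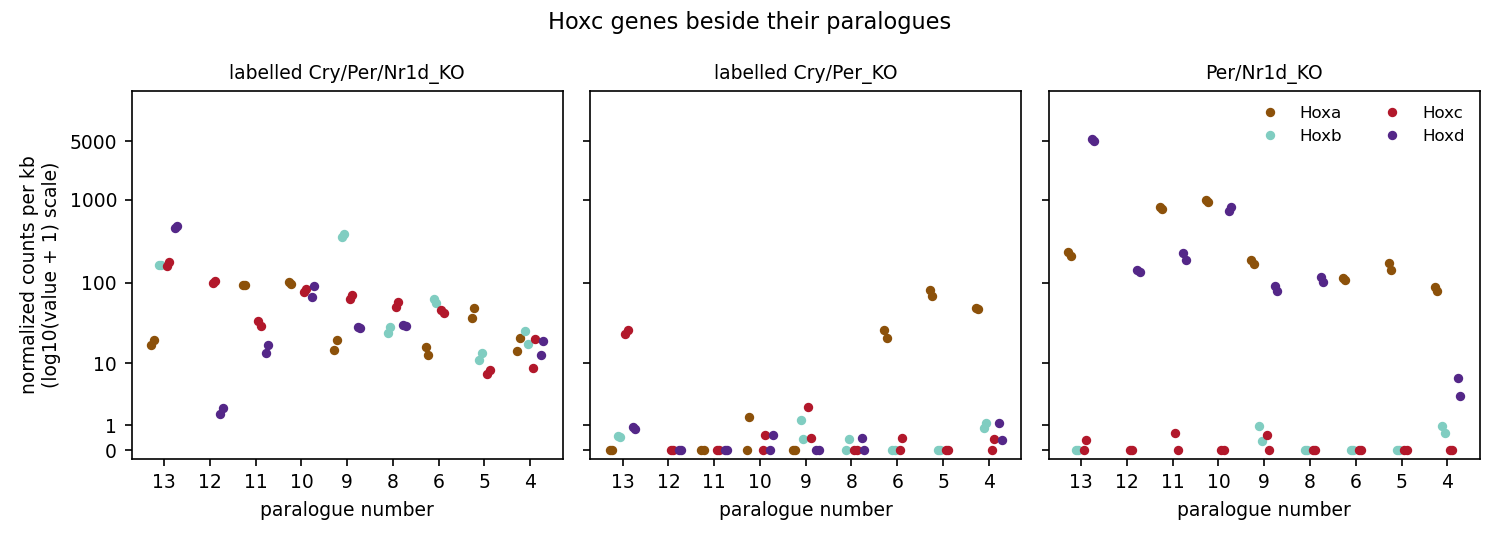
Normalized counts per kb of exon (vertical axis, log10(value + 1) scale) of the genes of paralogue groups 13 to 4 (horizontal axis), with 1 panel for each line, 1 point for each library and a colour for each cluster. Hoxc genes are seen at all 9 positions in the Cry/Per/Nr1d_KO-labelled libraries, Hoxc13 reaches 23.5 and 26.7 in the Cry/Per_KO-labelled pair, and every Hoxc point in Per/Nr1d_KO is below 1.

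A rule set after the data had been seen counted genes with at least 20 counts in each Cry/Per/Nr1d_KO-labelled library and at most 3 in each of the other 4. Of 13482 genes that met the first condition, 117 met both, or 0.868%. Of the 9 Hoxc members 7 met both, the exceptions being Hoxc13 and Hoxc9. Of the other Hox genes, 25 met the first condition and 7 met both, all of them in the Hoxb cluster (Hoxb4, Hoxb5, Hoxb6, Hoxb7, Hoxb8, Hoxb9 and Hoxb13). Hoxb13, the paralogue of Hoxc13 in that cluster, had 365 and 364 normalized counts where it was detected, then 1.11 and 0.982, then 0 and 0.

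Genes around the cluster were compared in the same way. Of 27 genes within 500 kb of either end, 14 were tested. Cbx5, a heterochromatin protein gene 155 kb beyond Hoxc4, was the 1 gene called between the Cry/Per_KO-labelled libraries and the Cry/Per/Nr1d_KO-labelled pair, where it fell by 0.85 on the log2 scale (SE 0.04, edgeR adjusted p = 1.67e-10). The median of the 14 was -0.36, against -0.29 for the 458 tested genes of chromosome 15 without the members and -0.003 for all genes. Of all genes tested, 16.8% were called in this comparison.

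Relative to the Cry/Per/Nr1d_KO-labelled libraries, Calcoco1 and Itga5 rose in Per/Nr1d_KO by 1.09 and 0.92 on the log2 scale. They were the 2 of the 14 called, where 20.7% of all genes tested were called. The median of the 14 was 0.18, against 0.036 for chromosome 15 and 0.011 for all genes. Relative to the Cry/Per_KO-labelled libraries, Calcoco1, Copz1, Zfp385a and Itga5 rose in Per/Nr1d_KO, and the median was 0.65 against 0.35 for chromosome 15. These were the 4 of the 14 called, where 29.0% of all genes tested were called. Itga5 encodes an integrin subunit that binds fibronectin. Among the untested neighbours, Ppp1r1a, which encodes a protein phosphatase inhibitor and lies 493 kb beyond Hoxc4, had 46.2 and 43.3 normalized counts in the Cry/Per/Nr1d_KO-labelled libraries. It had 0 and 1.96 in the Cry/Per_KO-labelled pair and 0 and 0.789 in Per/Nr1d_KO, and was the only neighbour outside the cluster that met the rule of 20 and 3 counts.

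**Figure D5:**
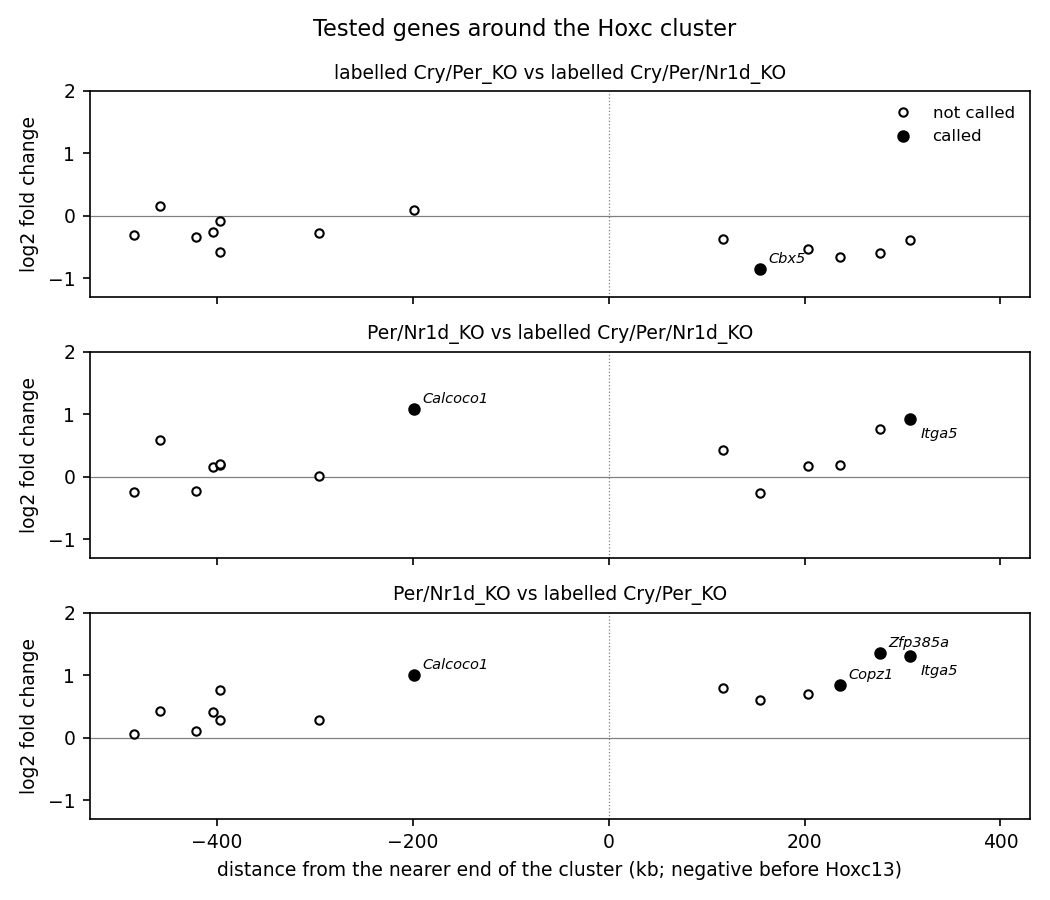
Log2 fold change (vertical axis) of the 14 tested genes within 500 kb of the Hoxc cluster against their distance from its nearer end in kb (horizontal axis), with 1 panel for each comparison. Filled points were called and open points were not. Changes lie between -0.85 and 1.36 on the log2 scale. On that scale Hoxc13 fell by 2.74 in the Cry/Per_KO-labelled libraries relative to the Cry/Per/Nr1d_KO-labelled pair. As plain ratios and not log2 values, the 8 other members differed at least 7.60-fold between the Cry/Per/Nr1d_KO-labelled libraries and either other group.

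Genes known to act with or upon Hox clusters were counted from lists. Relative to the Cry/Per/Nr1d_KO-labelled libraries, 16.8% of all genes tested were called in the Cry/Per_KO-labelled pair and 20.7% in Per/Nr1d_KO. The 9 TALE genes (Pbx, Meis and Pknox), whose proteins bind DNA together with Hox proteins, were all tested and all above 70 normalized counts in every library. In the Cry/Per_KO-labelled libraries, Pbx4 and Pknox2 were higher than in the Cry/Per/Nr1d_KO-labelled pair, by 1.49 and 1.31 on the log2 scale, and the list's median was 0.07. Among the TALE genes called in Per/Nr1d_KO, Pknox2 was higher than in the Cry/Per/Nr1d_KO-labelled libraries and Meis2 and Meis3 were lower, with a list median of -0.11, although Pknox2 at 0.81 was not called with median-of-ratios scaling. Meis3 moved most, from 629 and 637 normalized counts to 78.6 and 72.6, where it fell by 3.08 on the log2 scale (SE 0.11, edgeR adjusted p = 9.75e-13).

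All 25 genes of Polycomb, Trithorax and related chromatin complexes were tested, which hold Hox clusters silent or active. Between the Cry/Per_KO-labelled libraries and the Cry/Per/Nr1d_KO-labelled pair, 2 were called, the Polycomb methyltransferase Ezh1 and the Trithorax methyltransferase Kmt2a, both higher, by 0.87 and 0.83 on the log2 scale. Among the genes of these complexes called in Per/Nr1d_KO, Jarid2 was higher than in the Cry/Per/Nr1d_KO-labelled libraries and the Polycomb genes Cbx6 and Cbx8 were lower, with Cbx6 falling by 1.59. The medians of the list were -0.05 and -0.10 in these comparisons, where 16.8% and 20.7% of all genes tested were called.

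Of 16 genes that act on Hox expression in the embryo, namely retinoid and Cdx genes and the TGF-beta family ligand Gdf11, 7 were tested. Relative to the Cry/Per/Nr1d_KO-labelled libraries, 1 was called higher and 2 lower in the Cry/Per_KO-labelled pair (median -0.30), and 3, Gdf11 among them, were called lower in Per/Nr1d_KO (median -0.18). Of all genes tested, 16.8% and 20.7% were called in these comparisons. Cyp26b1, which breaks down retinoic acid, had 982 and 922 normalized counts in the Cry/Per/Nr1d_KO-labelled libraries, 152 and 138 in the Cry/Per_KO-labelled pair and 456 and 440 in Per/Nr1d_KO. Aldh1a3, which makes retinoic acid, had 370 and 337, then 25.6 and 42.2, then 27.9 and 29.2. Both were called lower in both other groups, and the receptor gene Rara was called higher in the Cry/Per_KO-labelled libraries. The untested Cdx2, a homeobox gene of the tail end that acts upstream of Hox genes, had 45.3 and 34.4 normalized counts in the Cry/Per/Nr1d_KO-labelled libraries, 0 and 0 in the Cry/Per_KO-labelled pair and 0 and 0.789 in Per/Nr1d_KO.

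Of 8 factors that mark limb position, 6 were tested, and their levels split in several ways. Relative to the Cry/Per/Nr1d_KO-labelled libraries, 3 were lower in the Cry/Per_KO-labelled pair, with a median of -3.71 when genes at 0 were put at their bound, and in Per/Nr1d_KO 3 were higher and 2 lower, with a median of 0.87. The shares of all genes tested that were called were 16.8% and 20.7%. Tbx5, a forelimb gene, had 320 and 311 normalized counts in the Cry/Per/Nr1d_KO-labelled libraries and 0 in the other 4, as Hoxc12, Hoxc8 and Hoxc5 did. Pitx1, a hind limb gene, had 591 and 630, was at 0 in the Cry/Per_KO-labelled libraries, and had 2455 and 2111 in Per/Nr1d_KO. Isl1, active in the early hind limb field, had 206 and 175 and otherwise 1 count in 1 Cry/Per_KO-labelled library. Tbx4, an untested factor of the list, was at 0 in both labelled groups and had 2.53 and 3.16 in Per/Nr1d_KO. The Cry/Per/Nr1d_KO-labelled libraries thus held counts of Tbx5, Pitx1 and Isl1, but not of Tbx4.

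The genes whose pattern over the 6 libraries lay nearest to that of Hoxc13 were Scara5, Ces1g and Aspn, among 11933 tested genes compared. Likeness was the Euclidean distance between log2 CPM values centred on each gene's mean, and it was 0.446, 0.747 and 0.964 for the 3 genes. Scara5, a ferritin receptor gene, had 353 and 335 normalized counts in the Cry/Per/Nr1d_KO-labelled libraries, 67.9 and 64.8 in the Cry/Per_KO-labelled pair and 0 and 0.789 in Per/Nr1d_KO. Aspn, the gene of the matrix protein asporin, followed the same order at a higher level, with 2807 and 3337, 318 and 319, and 20.3 and 16.6.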

How the data were processed

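Poly-A RNA of 6 libraries, 2 for each of 3 lines, was sequenced with a stranded single-end kit. Alignment (STAR, mm10) and counting per Entrez gene (featureCounts) were done by the authors, and the deposited values are raw whole-number counts. The strand setting and the treatment of reads with several matches are not given in the sources used here. A further 2 deposited tables hold DESeq2 (1.22.2) comparisons by the authors, with mean counts, log2 fold changes and p-values, and were not used.

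Libraries were grouped by their genotype label, which Arntl and Cry1 went against in 4 of them. Symbols and coordinates came from RefSeq (GRCm38.p6), with symbols for 25275 of 27179 genes (93.0%). Exon lengths and shared stretches came from the annotated transcripts of another gene set, GENCODE. The analysis used edgeR 4.0.16 in R 4.3.3. TMM normalization and 1 quasi-likelihood fit over all 6 libraries with 3 groups were used, without a replicate term, for the 11934 genes whose mean reached 100 normalized counts. Calls needed a Benjamini-Hochberg adjusted p under 0.05 over all genes tested and an absolute log2 fold change above 0.81. The standard error is the log2 fold change divided by the square root of F. Ratios pooled the counts of a group, with exact intervals, and a group at 0 was set at 3 counts in each library. Depth was 53764390 to 85927236 counts, and the biological coefficient of variation was 0.0393. Every SD rests on 2 values, and p-values measure the spread between preparations of 1 line. Same-numbered libraries did not deviate together, with correlations of deviations over genes from -0.21 to -0.02, and replicates of a group correlated at 0.998. On data simulated for Per/Nr1d_KO against Cry/Per/Nr1d_KO (11931 genes tested), the test recovered 80 of 81 genes changed 2-fold and 83 of 83 changed 4-fold.

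Named genes were the 9 members, the genes within 500 kb, the listed Hox, TALE, chromatin, retinoid and limb genes, and the 3 genes with the pattern most like the highest member. A few named genes and the homeobox stretch of 1 member are not reported here. The members and lists were chosen with earlier results of these data known. Alternatives were another scaling, DESeq2 1.42.0, other filters and limits, the compared groups alone, a replicate block and leaving out each library.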

Additional observations from a re-analysis of the deposited data

How the results depend on the processing

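Hoxc13 kept its direction in all 3 comparisons under the 16 alternatives and its call in all but the study's own limit of an adjusted p under 1e-22 with DESeq2. Its log2 fold change ranged from -2.84 to -2.65 between the Cry/Per_KO-labelled libraries and the Cry/Per/Nr1d_KO-labelled pair, from -9.73 to -8.83 for Per/Nr1d_KO against the Cry/Per/Nr1d_KO-labelled libraries, and from -6.98 to -6.10 against the Cry/Per_KO-labelled pair. The last 2 ranges leave out the fit without Per/Nr1d_KO replicate 2, where Hoxc13 was at 0 in that line and the fitted size is no measurement. At that limit, DESeq2 called Hoxc13 in the first comparison and 0 members in the others (1 each at an adjusted p under 0.05, as with edgeR), 3, 9 and 2 other Hox genes in place of 16, 15 and 13, and 1103, 1766 and 2533 genes in place of 2006, 2468 and 3457. With a minimum mean of 10, edgeR called 8 members in the first comparison and 8 in the second, 26 and 25 other Hox genes, and 3311 and 3912 genes in place of 2006 and 2468. With no filter it called 9 and 9 members, 27 and 26 other Hox genes, and 3808, 4576 and 5590 genes, the last in place of 3457. More genes were tested in these fits, 14770 and 20375. With no limit on the fold, 9118, 9042 and 9793 genes were called.

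Leaving out each library in turn kept 1 member called in each comparison, with 12 to 15, 12 to 15 and 10 to 13 other Hox genes and 1962 to 2025, 2414 to 2487 and 3377 to 3476 genes called in the same order. The replicate block gave 2002, 2468 and 3457 genes, 16, 15 and 13 other Hox genes and 1 member each, and it changed no other call of a count. A block with the numbers of the Cry/Per/Nr1d_KO-labelled libraries crossed, chosen after seeing the data, gave 2003, 2469 and 3460 genes. Median-of-ratios scaling moved the median of all genes by less than 0.1 on the log2 scale and turned the direction of no Hox gene tested. Depth limits the 8 lower members: at 0 counts only a bound on the fold can be given, and 1 count decides several ratios.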
